A study of Homo sapiens with 12 samples.

Results

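Receptor tyrosine kinases are cell-surface proteins that carry a kinase domain on the inner side of the membrane. The set described here was chosen by gene family and held 53 of the 60666 genes in the count table. Its markers, FLT1 and TEK, were picked from these same data as among the most changed. Their fold changes and p-values below are therefore descriptions and not independent tests. Transcripts were measured in HT1376, an established human bladder cancer cell line. HT1376 CT is the control line made with a CRISPR guide to luciferase. HT1376 FOXP3 KO is the line in which exon 2 of the transcription factor FOXP3 was targeted with CRISPR/Cas9. Both are described as single-cell clones. IFNγ was given at 100 ng/mL, and cells were taken after 48 hours beside untreated ones. Each of the 4 groups had 3 libraries, numbered 11, 12 and 13. The paper calls both lines clonal without giving a number of clones behind the libraries, and each line is treated here as 1 clone. The loss of FOXP3 and other differences between the clones therefore cannot be told apart. No source used here says whether the 3 libraries of a group came from separate cultures. The p-values thus measure the spread between these libraries, which may be technical. In bulk RNA, fewer cells that express a gene and less RNA per cell cannot be told apart.

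A growth factor brings receptor chains together, the kinases phosphorylate each other, and adaptor proteins that dock on these sites switch on the RAS-ERK and PI3K-AKT pathways. ERK signalling induces its own inhibitors, among them the Sprouty, SPRED and DUSP proteins, so the level of these transcripts is widely used as a readout of ERK signalling. In urothelium and its tumours EGFR, ERBB2, ERBB3, FGFR3 and MET are the receptors most often studied, whereas FLT1 and TEK are known from endothelium, CSF1R from macrophages and PDGFRB from pericytes and fibroblasts.

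The libraries held 4490684 to 39270042 counts, so 1 count weighed most in the shallow libraries. FOXP3 itself reached at most 3 counts in any library and could not serve as a check of the labels. Of 18 urothelial and epithelial markers, 14 to 16 had more than 3 counts in some library of each group, with a summed level of 4512 to 5712 in normalised CPM (counts scaled to a common library total), and UPK3A was at 0 in every group. Of 15 endothelial markers 7 to 9 were detected, with a sum of 37.4 to 70.3 normalised CPM carried mostly by MMRN2 and ENG, and PLVAP, SOX17 and MMRN1 were at 0 in every group. Of 10 haematopoietic markers 3 to 5 were detected, with a sum of 1.325 to 7.38 normalised CPM, and CD68, SPI1 and TYROBP were at 0 in every group. The sum of 9 fibroblast and mural markers was 55.9 to 105 normalised CPM in the HT1376 CT libraries and 456 to 735 in the HT1376 FOXP3 KO libraries, of which COL1A2, DCN and LUM made up most. The rest of that list went both ways in untreated HT1376 FOXP3 KO. RGS5, a pericyte marker, was lower, at a mean of 4.23 against 30.2 normalised CPM. COL1A1 at 7.78 against 28.8, THY1 at 0.0999 against 7.54 and POSTN at 0.0286 against 0.12 were lower too. COL3A1 was higher, at 15.5 against 1.63, as was ACTA2 at 0.978 against 0.56.

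A few promoters are shown because they belong to receptors with wide differences between the clones (AXL, MUSK, CSF1R and FLT1) and to TEK, and because forkhead factors such as FOXP3 bind DNA. They were chosen with the motif matches known, and FGFR1, which fell more than MUSK, was not in the table of promoters used. The sequences are those of RefSeq (GRCh38.p14), 250 bases before to 50 after an annotated start, read 5′ to 3′ on the strand of the gene, and capitals mark matches to a forkhead motif (NNAAACA with a purine as its first base and a pyrimidine as its second, searched on both strands). The window of AXL is chr19:41226505-41226804 (+), that of CSF1R chr5:150086505-150086804 (-), that of MUSK chr9:110668541-110668840 (+), that of TEK chr9:27109200-27109499 (+) and that of FLT1 chr13:28495079-28495378 (-).
AXL: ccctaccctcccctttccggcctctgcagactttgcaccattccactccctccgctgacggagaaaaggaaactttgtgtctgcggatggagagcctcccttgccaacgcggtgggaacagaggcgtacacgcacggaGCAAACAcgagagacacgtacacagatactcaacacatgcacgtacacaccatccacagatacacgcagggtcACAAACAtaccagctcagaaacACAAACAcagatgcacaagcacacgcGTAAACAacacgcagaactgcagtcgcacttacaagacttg
CSF1R: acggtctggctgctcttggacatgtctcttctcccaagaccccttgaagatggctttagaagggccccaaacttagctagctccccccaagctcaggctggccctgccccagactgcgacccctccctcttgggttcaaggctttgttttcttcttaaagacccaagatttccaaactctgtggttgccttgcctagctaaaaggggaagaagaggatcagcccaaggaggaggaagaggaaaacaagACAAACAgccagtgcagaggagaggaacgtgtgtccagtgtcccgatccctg
MUSK: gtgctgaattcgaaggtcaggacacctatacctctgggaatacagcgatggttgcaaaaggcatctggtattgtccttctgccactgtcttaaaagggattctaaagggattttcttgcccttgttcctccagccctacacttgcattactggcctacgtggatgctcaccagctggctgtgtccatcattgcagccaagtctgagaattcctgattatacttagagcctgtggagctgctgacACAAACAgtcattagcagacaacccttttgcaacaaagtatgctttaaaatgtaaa
TEK: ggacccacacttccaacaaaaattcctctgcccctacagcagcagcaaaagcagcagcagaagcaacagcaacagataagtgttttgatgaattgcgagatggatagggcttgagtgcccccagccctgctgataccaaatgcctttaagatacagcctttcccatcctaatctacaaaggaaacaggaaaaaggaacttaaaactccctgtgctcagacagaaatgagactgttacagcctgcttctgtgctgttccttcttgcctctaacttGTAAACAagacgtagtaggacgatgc
FLT1: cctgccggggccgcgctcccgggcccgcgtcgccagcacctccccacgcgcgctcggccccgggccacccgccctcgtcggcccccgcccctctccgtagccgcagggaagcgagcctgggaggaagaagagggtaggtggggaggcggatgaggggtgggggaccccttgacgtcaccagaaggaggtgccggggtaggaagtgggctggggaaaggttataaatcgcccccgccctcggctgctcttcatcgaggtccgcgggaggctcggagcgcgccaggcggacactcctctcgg

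The AXL window held 4 matches, at -112, -39, -17 and 9 from the start base, and the CSF1R, MUSK and TEK windows held 1 each, at -2, -6 and 24. The FLT1 window, with 73.3% G and C, held none of these letters. The AXL, CSF1R and TEK windows shown lie inside the annotated genes, which begin further upstream. The other listed starts of AXL and CSF1R, near the 5′ end of each gene, had no match, nor had the other listed start of TEK. Of the 80 promoters listed for 48 of the 53 receptors, 12 (15.0%) held a match, against 15.1% of 35116 promoters of the same length. These matches are descriptions of letters, not of binding.

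Of the 53 receptors, 22 had a mean over the 12 libraries above 10 normalised CPM, 7 lay between 1 and 10, and 24 were at 1 or below. No library held more than 3 counts for 7 receptors, and 2 of those were at 0 throughout. Per kilobase of exon, the highest were MET, the receptor of hepatocyte growth factor, at 120 normalised CPM per kilobase (mean of the 12 libraries), EGFR at 81.0, the collagen receptor DDR1 at 56.7, the ephrin receptor EPHA2 at 37.8 and MST1R, the receptor of macrophage-stimulating protein, at 15.2. Measured against the longest annotated transcript, EGFR moved to first place and MST1R to 8th, since the lengths of exons in use are unknown.

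**Figure D1:**
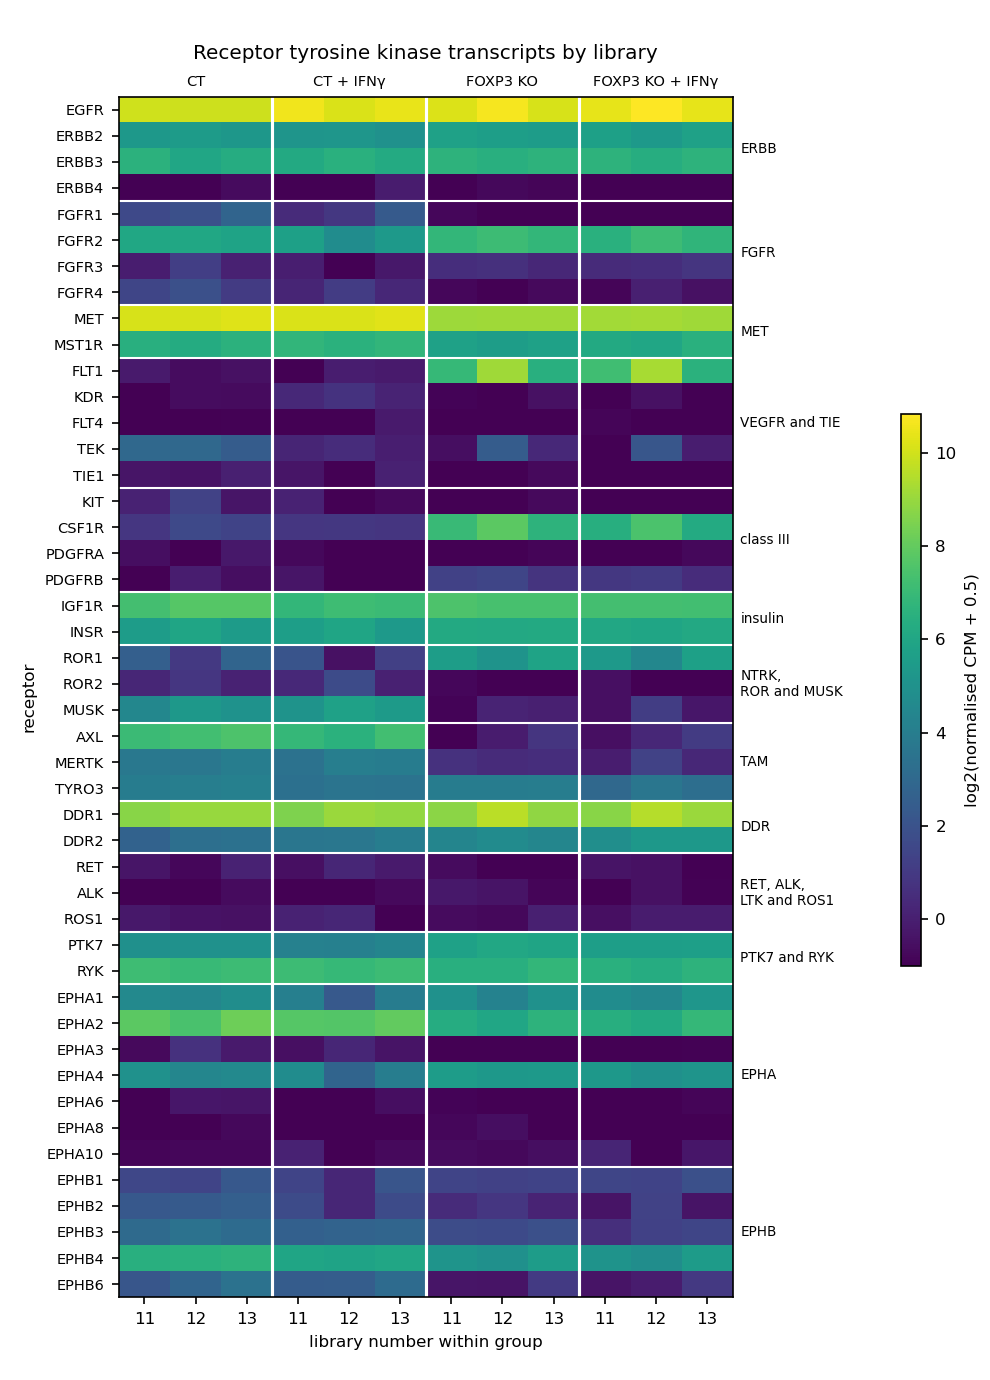
Colour shows log2(normalised CPM + 0.5) of the 46 receptors with more than 3 counts in some library, in rows grouped by family, for the 12 libraries in columns, grouped by clone and treatment. AXL, MERTK and MUSK are bright on the HT1376 CT side, FLT1, CSF1R and ROR1 on the HT1376 FOXP3 KO side.

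The first question was how the receptors differed between HT1376 FOXP3 KO and HT1376 CT. In untreated cells 43 receptors had the total of at least 10 counts needed for a test, and 26 of them passed at an adjusted p under 0.05 (edgeR quasi-likelihood test, adjusted over all genes), 10 higher and 16 lower in HT1376 FOXP3 KO. Over all 25320 genes tested, 32.1% passed, 14% higher and 18.2% lower. The median log2 fold change was -0.48 over the receptors and -0.02 over all genes. An absolute log2 fold change over 2 in addition was met by 14 receptors, against 12.3% of all genes. With IFNγ, 24 of 39 receptors tested passed, 10 higher and 14 lower, against 28.9% of 24388 genes, 13.2% higher and 15.7% lower; the median was -0.01 over the receptors and 0.02 over all genes, and 12 receptors also had an absolute log2 fold change over 2, against 12.1% of all genes.

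Both comparisons could be made for 39 receptors, and 20 passed in both, all in the same direction. The comparisons share no library but set the same clones against each other, and same-numbered libraries deviated together. They are therefore not independent repeats. Of all genes 32.1% passed untreated and 28.9% with IFNγ. The share of all genes that passed in both is not given here, so whether the receptors stand apart cannot be read from the 20. FGFR2, FLT1, CSF1R, PDGFRB, ROR1, DDR2, PTK7 and EPHA4 were higher in HT1376 FOXP3 KO. FGFR1, MET, MST1R, ROR2, MUSK, AXL, MERTK, RYK, EPHA2, EPHB3, EPHB4 and EPHB6 were lower. EGFR, INSR, FGFR4, KIT, EPHA3 and EPHB2 passed in untreated cells alone and ERBB2, EPHA1, KDR and TIE1 with IFNγ alone, which does not show that the treatments differ. KIT had too few counts for a test with IFNγ. The difference between the treatments, tested as an interaction, gave adjusted p-values of 0.683 for FGFR4, 0.801 for EPHA1 (0.0395 with the replicate block) and 0.823 to 0.999 for the other 8 of these 10 receptors.

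**Figure D2:**
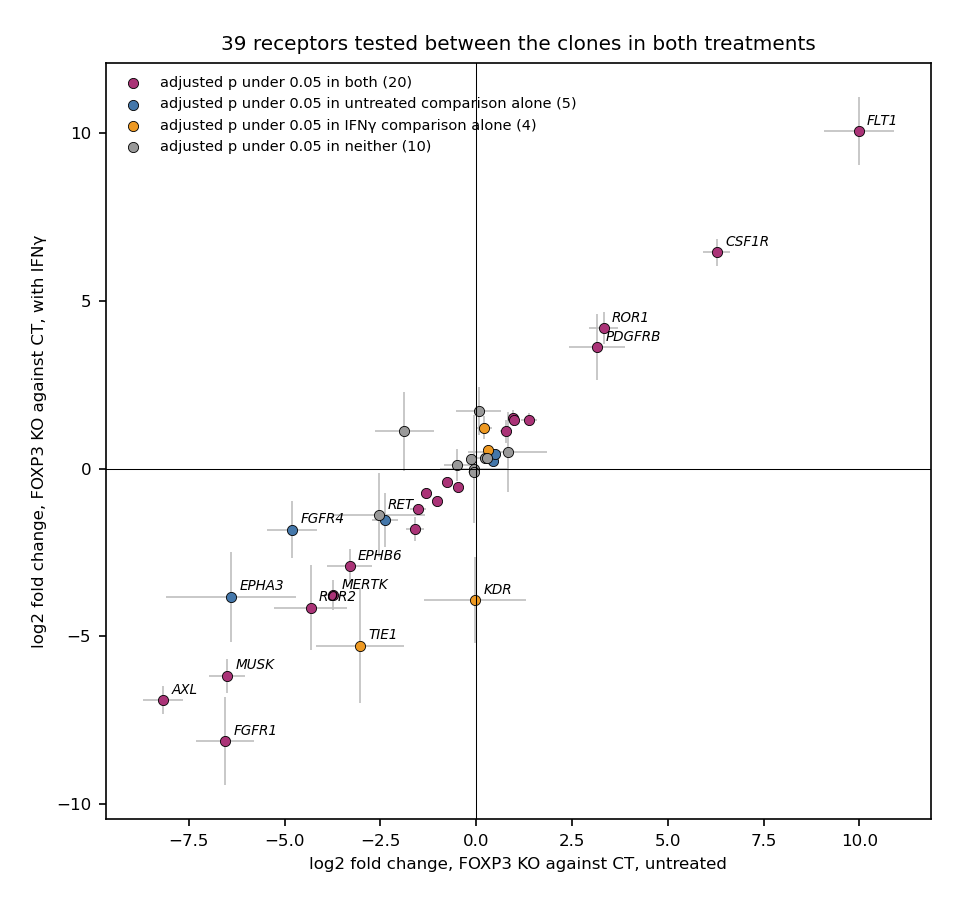
Each point is one of the 39 receptors tested in both treatments, placed by its log2 fold change between the clones, positive where HT1376 FOXP3 KO was higher, in untreated cells (x axis) and with IFNγ (y axis), with standard errors as bars and colour for the comparisons passed (20 in both, 5 in untreated cells alone, 4 with IFNγ alone, 10 in neither). FLT1 and CSF1R stand at the upper right and AXL, MUSK and FGFR1 at the lower left.

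Among the receptors of VEGF and the angiopoietins, FLT1 (VEGFR1, GRCh38 chromosome 13, 28300346 to 28495145) was near 0 in HT1376 CT and abundant in HT1376 FOXP3 KO. In untreated HT1376 CT it was at 0.410, 0.159 and 0.212 normalised CPM in libraries 11, 12 and 13, and in HT1376 FOXP3 KO at 122, 565 and 88.9. IFNγ-treated libraries were at 0, 0.462 and 0.391 in HT1376 CT and at 148, 631 and 92.5 in HT1376 FOXP3 KO. The groups did not overlap, and the mean of HT1376 FOXP3 KO was 995 times that of HT1376 CT untreated and 1022 times with IFNγ. The log2 fold change was 9.98 ± 0.92 (SE, adjusted p = 1.3e-05) untreated and 10.06 ± 1.001 (adjusted p = 2.38e-05) with IFNγ, and it was at least 8.72 whichever library was left out. The pseudogene FLT1P1 had 0 counts in all 12 libraries. Endothelial markers differed between the clones in both directions: MMRN2 had a mean of 44.4 normalised CPM in untreated HT1376 FOXP3 KO against 22.3 in HT1376 CT, ENG 3.56 against 16.3, EGFL7 1.19 against 5.29 and ROBO4 0 against 6.18. Their part in the values of FLT1 and TEK was not tested.

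KDR, the main signalling receptor of VEGF, stayed low. It had 0, 0.159 and 0.132 normalised CPM in untreated HT1376 CT, 0.774, 1.15 and 0.615 with IFNγ, and at most 0.230 in any HT1376 FOXP3 KO library. With IFNγ its summed counts were 20.3 times higher in HT1376 CT (24 against 2 counts, 95% exact interval 5.03 to 177, counting error only; adjusted p = 0.0399), a difference that was no longer past the threshold in 5 of the 6 fits that left out a library. TIE1, the partner of TEK, was at or below 0.559 normalised CPM throughout. With IFNγ it had 13 summed counts in HT1376 CT and 0 in HT1376 FOXP3 KO, at least 1.37-fold lower with 3 counts per library as the floor (adjusted p = 0.0463, and 0.081 with the replicate block), which passed in 1 of the 5 fits with a library left out in which it had enough counts for a test. FLT4 had no more than 7 counts in any library.

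TEK (TIE2, the angiopoietin receptor, GRCh38 chromosome 9, 27109141 to 27230174) varied with treatment and with library. In untreated HT1376 CT it was at 7.49, 7.39 and 4.94 normalised CPM and with IFNγ at 0.678, 0.923 and 0.503. In HT1376 FOXP3 KO it was at 0.171, 4.91 and 0.806 untreated and at 0, 4.06 and 0.457 with IFNγ. Every untreated HT1376 CT library lay above every library of the other 3 groups, narrowly so above the HT1376 FOXP3 KO library numbered 12. Between the clones the log2 fold change was -1.87 ± 0.77 in untreated cells (adjusted p = 0.0876), and with the replicate number as a block it was -2.40 with an adjusted p of 0.000384. Of the 8 other settings without a library left out, the block among them, 4 called TEK lower in untreated HT1376 FOXP3 KO (adjusted p 5.12e-07 to 0.279 over the 8). With IFNγ the log2 fold change between the clones was 1.11 ± 1.18 (adjusted p = 0.531). The second marker thus did not follow FLT1.

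The HT1376 FOXP3 KO libraries numbered 12 stood above those numbered 11 and 13 for both markers. FLT1 was 5.35 times the mean of the other libraries untreated and 5.25 times with IFNγ, and TEK was 10.04 and 17.8 times. They were the 2 receptors of 34 tested that were over 2-fold above both other numbers in both treatments, against 2.16% of 24131 genes. Both had been picked as markers from these same libraries. None was over 2-fold below both in both treatments, against 2.54% of genes. Without the HT1376 FOXP3 KO library numbered 12, the log2 fold change of FLT1 was 8.72 (adjusted p = 8.13e-10) untreated and 8.77 (adjusted p = 4.63e-08) with IFNγ, and that of TEK was -3.78 (adjusted p = 0.00017) and -1.33 (adjusted p = 0.406). TEK therefore passed as lower in untreated HT1376 FOXP3 KO only without that library, among the fits that left out 1 library, and its sign with IFNγ, which passed in no such fit, turned. Of the 34 receptors, 10 were highest in number 12 in both treatments (FLT1, TEK, CSF1R, DDR1, DDR2, EGFR, FGFR2, PDGFRB, MUSK and EPHB2), against 16.6% of genes, and 11 were lowest in it, against 25.3%.

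Among the class III receptors, which bind CSF1, PDGF, KIT ligand and FLT3 ligand, CSF1R rose the most. It was at 1.35, 2.54 and 2.14 normalised CPM in untreated HT1376 CT and at 128, 232 and 101 in HT1376 FOXP3 KO. With IFNγ the values were 1.36, 1.38 and 1.28 against 85.3, 178 and 74.8. No library of one clone came near those of the other, with log2 fold changes of 6.27 ± 0.36 (adjusted p = 4.32e-07) and 6.45 ± 0.40 (adjusted p = 7.7e-07). Of the haematopoietic markers SPI1, TYROBP and CD68 were at 0 in the same libraries. CD14 had a higher mean beside CSF1R, at 1.15 against 0.404 normalised CPM untreated and 1.16 against 0.41 with IFNγ, ITGAM and PTPRC had lower ones, at 0.467 against 1.46 and 0.164 against 0.805 untreated, and their part in the CSF1R values was not tested. PDGFRB was at 0, 0.477 and 0.185 in untreated HT1376 CT and at 1.97, 2.32 and 1.21 in HT1376 FOXP3 KO (log2 fold change 3.16 ± 0.73, adjusted p = 0.00711). With IFNγ 3 counts in HT1376 CT stood against 63, a ratio of 12.4 (95% exact interval 4.065 to 61.9; adjusted p = 0.0177), lost without HT1376 CT with IFNγ library 13 or HT1376 FOXP3 KO with IFNγ library 11. Fibroblast and mural markers went both ways in the same clone, with COL1A2, COL3A1, DCN and LUM higher and COL1A1, THY1 and RGS5 lower. Their part in the PDGFRB and DDR2 values was not tested.

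KIT fell in untreated cells, from 46 summed counts in HT1376 CT to 2 in HT1376 FOXP3 KO, a ratio of 17.7 (95% exact interval 4.63 to 150.5; adjusted p = 0.018), and this was lost without HT1376 CT library 12 or HT1376 FOXP3 KO library 11. PDGFRA had at most 13 counts in a library and FLT3 no more than 3.

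The collagen receptors and the WNT-binding receptors split. DDR2, which binds fibrillar collagen, was at 6.09, 9.61 and 10.2 normalised CPM in untreated HT1376 CT and at 20.1, 25.5 and 21.4 in HT1376 FOXP3 KO, and with IFNγ at 11.9, 12.2 and 15.8 against 28.6, 39.5 and 39.2. The groups did not overlap in either treatment (log2 fold change 1.38 ± 0.21, adjusted p = 0.000489, and 1.45 ± 0.19, adjusted p = 0.00017). DDR1 was far more abundant, at 374 to 775 in all libraries, with a log2 fold change of 0.23 ± 0.20 (adjusted p = 0.419) untreated and 0.33 ± 0.20 (adjusted p = 0.256) with IFNγ; with the replicate block the latter had an adjusted p of 0.02.

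ROR1, a WNT5A receptor, was at 5.44, 1.43 and 6.45 normalised CPM in untreated HT1376 CT and at 47.2, 33.4 and 58.1 in HT1376 FOXP3 KO. IFNγ-treated libraries were at 3.68, 0.231 and 1.90 against 41.3, 21.6 and 52.6. The lowest HT1376 FOXP3 KO library was above the highest of HT1376 CT in both, with log2 fold changes of 3.32 ± 0.38 (adjusted p = 7.13e-05) and 4.18 ± 0.47 (adjusted p = 6.22e-05). Its close relative ROR2 went the other way at a much lower level: 52 summed counts against 2 untreated, a ratio of 20 (95% exact interval 5.27 to 169.5; adjusted p = 0.00553), and 30 against 3 with IFNγ, a ratio of 16.9 (5.25 to 86.5; adjusted p = 0.0292), the latter lost in 3 of 6 fits with a library left out.

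MUSK, the agrin-responsive receptor of the neuromuscular junction, was at 21.9, 39.7 and 32.4 normalised CPM in untreated HT1376 CT and at 0.0428, 0.624 and 0.518 in HT1376 FOXP3 KO. IFNγ-treated libraries were at 32.8, 54.0 and 43.5 against 0.201, 1.71 and 0.326. It was thus clearly expressed in 1 clone and near background in the other, with log2 fold changes of -6.49 ± 0.47 (adjusted p = 2.39e-06) and -6.18 ± 0.51 (adjusted p = 5.9e-06). LRP4, the co-receptor through which agrin reaches MUSK, was also lower in untreated HT1376 FOXP3 KO, at 2.04 ± 0.88 against 4.87 ± 1.95 normalised CPM (SD, n = 3 each; log2 fold change -1.24, adjusted p = 0.0316). With IFNγ LRP4 did not pass (-1.33, adjusted p = 0.14).

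The TAM receptors, which bind GAS6 and PROS1 and are known for the clearance of dying cells, did not move as one. AXL was at 134, 154 and 181 normalised CPM in untreated HT1376 CT and at 0, 0.446 and 1.27 in HT1376 FOXP3 KO. With IFNγ it was at 118, 92.8 and 153 against 0.201, 0.747 and 1.60. AXL was the receptor with the lowest fold change in untreated cells, at -8.16 ± 0.52 (adjusted p = 1.03e-06), and at -6.90 ± 0.42 (adjusted p = 6.48e-07) with IFNγ.

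MERTK was at 12.8, 12.4 and 15.5 in untreated HT1376 CT and at 1.11, 0.892 and 0.979 in HT1376 FOXP3 KO, and at 10.6, 15.9 and 15.0 against 0.468, 2.03 and 0.7501 with IFNγ. The mean was 13.6 and 12.8 times higher in HT1376 CT (log2 fold change -3.73 ± 0.24, adjusted p = 1.07e-06, and -3.77 ± 0.44, adjusted p = 8.3e-05). TYRO3 was at 14.9, 16.4 and 17.5 against 15.1, 15.3 and 15.7 untreated and its log2 fold change was -0.07 ± 0.15 (adjusted p = 0.766). With IFNγ it was -0.12 ± 0.23 (adjusted p = 0.752).

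**Figure D3:**
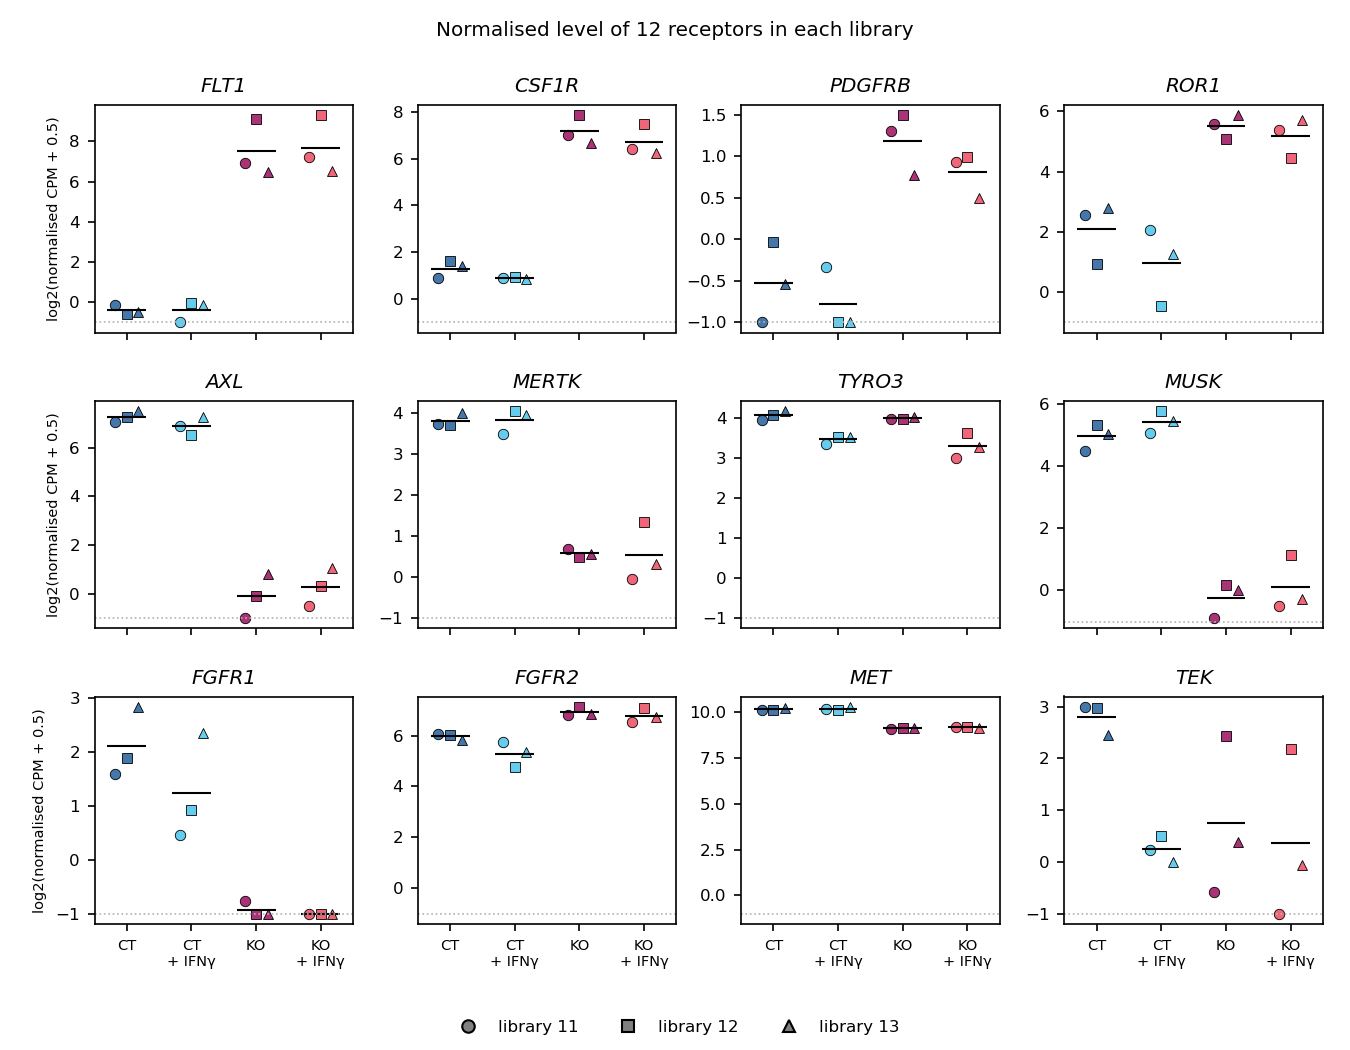
Each panel shows 1 receptor as log2(normalised CPM + 0.5) in the 12 libraries, by group on the x axis, with symbols for the library numbers, a bar at the mean of the 3 log2 values and a dotted line at 0 counts. AXL, MERTK, MUSK and FGFR1 are low in both HT1376 FOXP3 KO groups, FLT1, CSF1R, PDGFRB and ROR1 are high there, and the panel of TEK shows HT1376 FOXP3 KO libraries 12 above the others of their group.

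Among the FGF receptors, FGFR2 rose and FGFR1 fell. FGFR1 was at 2.52, 3.18 and 6.61 normalised CPM in untreated HT1376 CT against 0.0857, 0 and 0, and at 0.871, 1.38 and 4.58 with IFNγ against 0 in all 3 libraries. It was 128 times lower in summed counts in untreated HT1376 FOXP3 KO (333 against 2 counts, 95% exact interval 35.2 to 1062; adjusted p = 6.79e-05) and at least 11.05-fold lower with IFNγ, taking 3 counts per library as the floor (adjusted p = 0.0015). FGFR2, the receptor with an epithelial isoform that responds to FGF7 and FGF10, was at 66.2, 65.3 and 56.9 against 112, 139 and 114 untreated and at 52.95, 26.5 and 40.1 against 90.8, 136 and 107 with IFNγ. The groups were apart in both (log2 fold change 0.97 ± 0.13, adjusted p = 0.000173, and 1.51 ± 0.23, adjusted p = 0.000499).

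FGFR4 was at 2.28, 3.18 and 1.59 in untreated HT1376 CT, with 139 summed counts against 4 in HT1376 FOXP3 KO, a ratio of 26.7 (95% exact interval 10.2 to 99.5; adjusted p = 0.000212). FGFR3, often mutated in urothelial tumours, was low in all 4 groups, at 0 to 1.83 normalised CPM, with a log2 fold change of 0.06 ± 0.58 untreated (adjusted p = 0.949) and 1.72 ± 0.71 with IFNγ (adjusted p = 0.0928).

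Of the ERBB family, EGFR was at 999, 985 and 979 normalised CPM in untreated HT1376 CT and at 1183, 1652 and 1107 in HT1376 FOXP3 KO (log2 fold change 0.43 ± 0.14, adjusted p = 0.0413). All 3 values were above those of HT1376 CT, but the difference was past the threshold in 2 of 6 fits with a library left out, and with IFNγ the values of 1516, 1153 and 1382 overlapped with 1357, 1822 and 1365 (0.21 ± 0.14, adjusted p = 0.312). ERBB2 was at 39.4, 45.0 and 38.4 against 54.4, 49.7 and 46.7 untreated (0.31 ± 0.12, adjusted p = 0.0737, and 0.0348 with the replicate block) and at 34.9, 37.2 and 31.2 against 52.4, 40.0 and 54.7 with IFNγ (0.56 ± 0.16, adjusted p = 0.0201, past the threshold in 2 of 6 fits with a library left out). The groups did not overlap, by small margins. MIEN1 shares 5.53% of the exon bases of ERBB2 on the other strand, and EGFR-AS1 shares 1.17% of those of EGFR, and the strand setting of the counting was not stated.

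ERBB3, the partner of ERBB2 that binds neuregulins, ranged from 63.7 to 95.2 against 88.2 to 100.1 untreated and from 72.9 to 89.8 against 81.3 to 101 with IFNγ. The ranges overlapped, with log2 fold changes of 0.28 ± 0.14 (adjusted p = 0.164, 0.0348 with the replicate block and 0.0565 with the bias-adjusted deviance added to it) and 0.31 ± 0.14 (adjusted p = 0.13). ERBB4 had at most 8 counts in any library.

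MET was at 1110.4, 1109 and 1215 normalised CPM in untreated HT1376 CT and at 541, 563 and 565 in HT1376 FOXP3 KO, and at 1155, 1128 and 1257 against 582, 595 and 562 with IFNγ. No library of one clone came near the other, and the mean was 2.06 and 2.03 times higher in HT1376 CT (log2 fold change -1.02 ± 0.09, adjusted p = 1.19e-05, and -0.98 ± 0.10, adjusted p = 2.95e-05). MST1R, its closest relative, was at 86.9, 77.3 and 98.04 against 53.7, 46.9 and 53.8 untreated (-0.75 ± 0.12, adjusted p = 0.000823). With IFNγ it was at 111, 94.6 and 109 against 73.3, 63.9 and 91.7 (-0.42 ± 0.14, adjusted p = 0.0494), past the threshold in 2 of 6 fits with a library left out.

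The insulin family differed little. IGF1R was at 157, 211 and 207 against 182, 164 and 169 untreated (-0.14 ± 0.13, adjusted p = 0.451) and at 112, 141 and 133 against 155, 156 and 150.1 with IFNγ (0.30 ± 0.13, adjusted p = 0.102, 0.0353 with the replicate block and 0.0536 with the bias-adjusted deviance added to it). INSR was at 42.0 to 62.3 in HT1376 CT and at 62.4 to 71.9 in HT1376 FOXP3 KO over both treatments, with log2 fold changes of 0.50 ± 0.14 (adjusted p = 0.0199) and 0.43 ± 0.16 (adjusted p = 0.0672, and 0.0121 with the replicate block). The untreated call on INSR was lost without HT1376 CT library 11 or 13.

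The pseudokinases PTK7 and RYK, both of which act with WNT proteins, moved apart. PTK7 was at 30.3, 31.6 and 30.8 normalised CPM against 54.0, 67.7 and 60.0 untreated and at 17.6, 17.1 and 20.6 against 49.0, 48.3 and 50.7 with IFNγ. The ranges were far apart and the log2 fold changes were 0.99 ± 0.12 (adjusted p = 0.000126) and 1.45 ± 0.14 (adjusted p = 2.17e-05). RYK fell by 0.48 ± 0.12 (adjusted p = 0.0122) and by 0.54 ± 0.12 (adjusted p = 0.00615) on the log2 scale, the first of which was lost without HT1376 CT library 11 or 13 or HT1376 FOXP3 KO library 11. RET, ALK, LTK and ROS1 were below 1 normalised CPM in every library and gave no call.

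The Eph receptors, which bind membrane-bound ephrins on neighbouring cells, were the largest family. Of the 5 EPHB receptors, all tested, 4 were lower in untreated HT1376 FOXP3 KO and 3 with IFNγ, and none was higher. The shares of all genes that were lower were 18.2% untreated and 15.7% with IFNγ. EPHB4, the receptor of EFNB2, was at 87.7, 89.8 and 99.1 against 34.9, 30.2 and 46.1 untreated and at 60.7, 58.4 and 62.9 against 33.0, 27.3 and 45.1 with IFNγ. The groups did not overlap (log2 fold change -1.30 ± 0.15, adjusted p = 7.83e-05, and -0.74 ± 0.17, adjusted p = 0.00713). EPHB6, a kinase-dead member, fell by 3.30 ± 0.58 (adjusted p = 0.00132) and 2.91 ± 0.53 (adjusted p = 0.00168) on the log2 scale, and EPHB3 by 1.59 ± 0.23 (adjusted p = 0.000337) and 1.80 ± 0.35 (adjusted p = 0.00269).

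Of the 9 EPHA receptors, 6 were tested in untreated cells, where 1 was higher and 2 were lower, against 14% and 18.2% of all genes. With IFNγ 5 were tested, where 2 were higher and 1 was lower, against 13.2% and 15.7%. EPHA2, the most abundant, was at 229, 174 and 301 against 80.1, 63.1 and 99.1 untreated and at 207, 201 and 249.9 against 83.8, 72.9 and 118 with IFNγ. The groups did not overlap (log2 fold change -1.52 ± 0.20, adjusted p = 0.000206, and -1.22 ± 0.17, adjusted p = 0.000264). EPHA4 went the other way, with 0.77 ± 0.16 (adjusted p = 0.00301) and 1.11 ± 0.34 (adjusted p = 0.0309, lost in 3 of 6 fits with a library left out). The untreated call on EPHA4 passed in 7 of the 8 other settings without a library left out, with an adjusted p of up to 0.0584.

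EPHA3 was at 0.117, 1.11 and 0.397 in untreated HT1376 CT and at 0 in all 3 HT1376 FOXP3 KO libraries, at least 2.86-fold lower with 3 counts per library as the floor (adjusted p = 0.0196, lost in 3 of 6 fits with a library left out). EPHA1 passed with IFNγ, at 16.8, 4.39 and 15.0 against 26.2, 22.1 and 37.0 (1.22 ± 0.35, adjusted p = 0.0227, lost without library 13 of either group).

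The ligands and the downstream genes were read from lists of 184 genes in all. In untreated cells 152 were tested, of which 26 passed as higher in HT1376 FOXP3 KO and 54 as lower. With IFNγ 150 were tested, of which 32 were higher and 49 lower. Of all genes 14% were higher and 18.2% lower untreated, and 13.2% and 15.7% with IFNγ. These shares are the background for each list below. Of the ligands of the ERBB receptors, all 8 tested were lower in untreated cells, against 18.2% of all genes. With IFNγ 7 of 8 were lower, against 15.7%. The median log2 fold changes were -3.63 and -4.30. This list was chosen with earlier results of these data known, so the counts are a description. AREG, amphiregulin, was at 699 ± 210 normalised CPM (mean ± SD, n = 3 here and in the values of list genes that follow) against 23.96 ± 11.73 untreated and at 746 ± 56 against 21.98 ± 9.1 with IFNγ (log2 fold change -4.84, adjusted p = 2.64e-06, and -5.03, adjusted p = 2.4e-07). TGFA was at 345 ± 99 against 7.28 ± 4.49 untreated (-5.55, adjusted p = 1.85e-06) and EREG at 425 ± 160.5 against 57.4 ± 26.7 (-2.87, adjusted p = 0.000103). The levels of the receptor for all 3, EGFR, are given above.

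**Figure D4:**
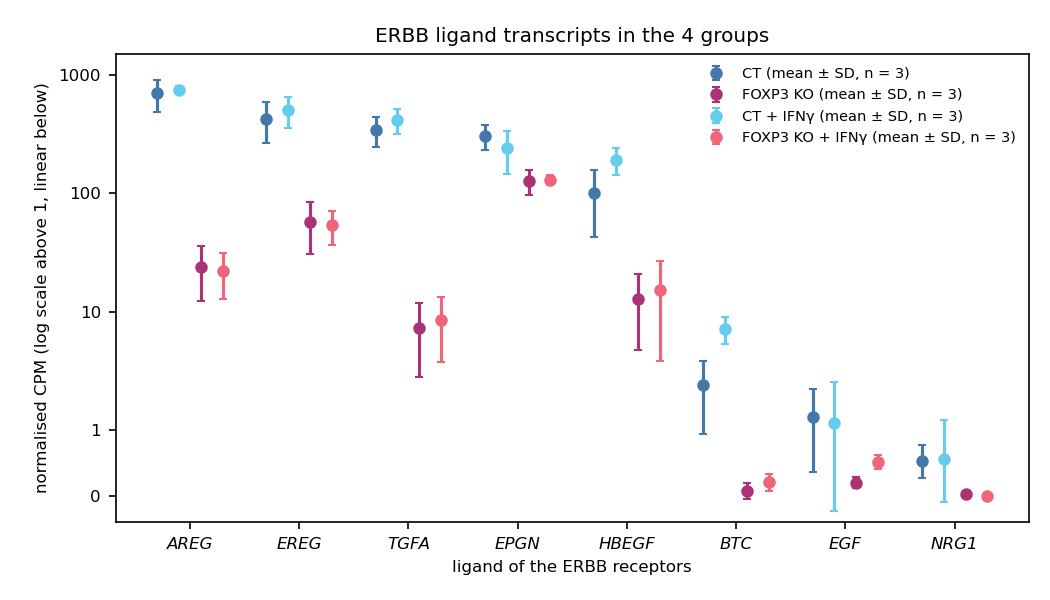
Points show the mean normalised CPM of the 8 ERBB ligands tested in untreated cells, with SD over the 3 libraries of each group as bars, on an axis that is logarithmic above 1 and linear below. AREG has means of 699 and 746 in the HT1376 CT groups and of 23.96 and 21.98 in the HT1376 FOXP3 KO groups.

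Among the other ligands, VEGFC, which binds FLT4 and KDR, fell from 24.6 ± 1.7 normalised CPM to 4 summed counts in untreated cells, a ratio of 324 (1687 against 4 counts, 95% exact interval 126.5 to 1192; adjusted p = 5.02e-08), and from 42.5 ± 3.2 to 0.112 ± 0.048 with IFNγ (log2 fold change -8.28, adjusted p = 2.02e-08). Of the 8 ligands of the VEGF and TIE receptors 7 were tested in each treatment, and 2 were lower untreated and 3 with IFNγ, with none higher. VEGFA, a ligand of FLT1 and KDR, did not pass without the replicate block (log2 fold change -0.86, adjusted p = 0.16, and -1.06, adjusted p = 0.0512), and with it was lower in both treatments (-1.13, adjusted p = 1.69e-05, and -1.26, adjusted p = 4.01e-06). Of the ligands of the class III receptors 1 was higher and 3 were lower in each treatment: PDGFB fell from 51.2 ± 5.7 to 6.98 ± 0.89 untreated (-2.87, adjusted p = 2.92e-07), PDGFC from 20.5 ± 7.8 to 1.54 ± 0.83 (-3.74, adjusted p = 4.39e-05), and PDGFA rose from 0.858 ± 0.307 to 3.49 ± 1.37 (2.02, adjusted p = 0.00307).

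The ligands of the TAM receptors went in opposite directions. GAS6 fell from 28.3 ± 9.7 to 4.18 ± 0.12 normalised CPM in untreated cells (log2 fold change -2.74, adjusted p = 1.79e-05), whereas PROS1 rose from 1.295 ± 0.23 to 12.6 ± 1.3 (3.30, adjusted p = 2.7e-06). In the list of ligands of MET, MST1R, the insulin, IGF, TAM, NTRK, RET and ALK receptors, 5 of 15 tested were higher and 4 lower untreated, and 5 and 3 with IFNγ. IGF2, a ligand of IGF1R, rose from 48.7 ± 8.1 to 260 ± 47 (2.43, adjusted p = 1.54e-06). Of the 23 FGF ligands and partners 9 and 8 were tested, and 1 was higher and 2 lower untreated and 3 lower with IFNγ. FGFBP1, which releases FGFs from the matrix, fell from 108 ± 29 to 6.33 ± 3.92 (-4.12, adjusted p = 4.2e-05).

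Of the 8 ephrins, 2 of the 7 and 6 tested were lower, in both treatments EFNA5 and EFNB2, and none was higher without the replicate block. With the block EFNA1 was higher in HT1376 FOXP3 KO, by 0.58 on the log2 scale untreated (adjusted p = 0.00108) and by 0.56 with IFNγ (adjusted p = 0.00248). EFNA5 fell from 15.5 ± 2.6 to 0.198 ± 0.094 normalised CPM untreated (-6.16, adjusted p = 3.05e-07) and EFNB2 from 52.6 ± 5.0 to 17.5 ± 8.2 (-1.59, adjusted p = 0.00174). Of the co-receptors, 2 of 9 tested were higher and 3 lower untreated, and 3 of 10 and 1 with IFNγ. The neuropilins exchanged places: NRP1 was at 336 summed counts in untreated HT1376 CT and at 0 in HT1376 FOXP3 KO, at least 21.5-fold lower (adjusted p = 0.000721), and NRP2 was at 1 against 444 counts, a ratio of 577 (95% exact interval 103.1 to 22850; adjusted p = 4.25e-06). Both are co-receptors for VEGF proteins.

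Downstream, 12 of 27 feedback and turnover genes were lower and 3 higher in untreated HT1376 FOXP3 KO, against 18.2% and 14% of all genes. With IFNγ 11 were lower and 3 higher, against 15.7% and 13.2%. DUSP4 fell from 478 ± 64 to 34.6 ± 11.4 normalised CPM untreated (log2 fold change -3.77, adjusted p = 4.09e-07), SPRY4 from 114 ± 30 to 6.70 ± 5.43 (-4.06, adjusted p = 4.66e-05) and SPRED1 from 30.3 ± 1.7 to 2.72 ± 0.48 (-3.48, adjusted p = 2.44e-07). SPRY3 was the exception among the Sprouty genes, rising from 0.5725 ± 0.126 to 20.7 ± 12.2 (5.23, adjusted p = 8.85e-06). Whether the activity of the receptors or of ERK differed between the clones was not tested.

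Of 20 transcripts known to rise after ERK signalling, 15 were lower and 1 higher untreated, against 18.2% and 14% of all genes. With IFNγ 12 were lower and 1 higher, against 15.7% and 13.2%. The median log2 fold changes were -1.39 and -1.19. In this list 4 transcripts, DUSP6, SPRED2, SPRY2 and SPRY4, are also on the feedback list. FOSL1 fell from 76.2 ± 20.9 to 4.71 ± 1.18 normalised CPM untreated (-4.02, adjusted p = 7.33e-07), CCND1 from 569 ± 136 to 57.3 ± 10.8 (-3.29, adjusted p = 6.06e-07) and ETV4 from 29.5 ± 3.0 to 2.73 ± 1.09 (-3.42, adjusted p = 2.61e-06). FOS was the 1 that rose, from 3.64 ± 3.19 to 41.2 ± 29.6 (3.61, adjusted p = 0.000931). Adaptors and the RAS, PI3K and PLC relay changed both ways, with 13 of 47 tested higher and 7 lower untreated, against 14% and 18.2% of all genes. With IFNγ 19 were higher and 8 lower, against 13.2% and 15.7%. VAV3 rose from 13.8 ± 5.0 to 170 ± 25 (3.66, adjusted p = 1.77e-06) and PIK3CD fell from 10.7 ± 2.7 to 2.14 ± 1.55 (-2.36, adjusted p = 0.00154).

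The second question was what IFNγ did to the receptors within each clone. In HT1376 CT 5 of the 43 receptors tested passed, 1 higher and 4 lower, against 5.35% of 24416 genes, 3.53% higher and 1.82% lower. The median log2 fold change was -0.24 over the receptors and -0.02 over all genes. The replicate numbers pair the libraries, and with the number as a block 18 receptors passed, 5 higher and 13 lower, against 18.6% of all genes.

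TEK, at the values given above, was the receptor with the largest change, a log2 fold change of -3.33 ± 0.38 (adjusted p = 0.000228) that held whichever library was left out and was not past the threshold when all 12 libraries shared 1 fit (adjusted p = 0.133). PTK7 fell by 0.71 ± 0.14 on the log2 scale (adjusted p = 0.0115) and EPHB4 by 0.58 ± 0.11 (adjusted p = 0.0082), the latter lost without HT1376 CT library 13 and in 1 fit of 12 libraries (adjusted p = 0.0689). In both the untreated and the treated libraries listed above do not overlap. IGF1R fell by 0.55 ± 0.14 (adjusted p = 0.0434, lost in 4 of 6 fits with a library left out and with edgeR's filterByExpr filter at 0.067) and EGFR rose by 0.47 ± 0.10 (adjusted p = 0.019, lost in 5 of 6 and in 1 fit of 12 libraries at 0.133).

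With the block, FGFR1 (log2 fold change -0.89, adjusted p = 0.0331), FGFR4 (-1.25, adjusted p = 0.0419), EPHA4 (-0.64, adjusted p = 5.63e-05), FGFR2 (-0.62, adjusted p = 2.52e-08), ROR1 (-1.25, adjusted p = 0.00115), TYRO3 (-0.61, adjusted p = 0.00191), AXL (-0.34, adjusted p = 0.000154), EPHA1 (-0.92, adjusted p = 1.21e-08) and EPHB2 (-1.08, adjusted p = 0.00327) were also lower with IFNγ in HT1376 CT. KDR (3.07, adjusted p = 0.0493), DDR2 (0.68, adjusted p = 0.00112), MUSK (0.50, adjusted p = 6.81e-05) and MST1R (0.28, adjusted p = 0.00618) were higher. Of these, the treated and untreated libraries overlapped for FGFR1, FGFR4, EPHA4, ROR1, AXL, MUSK and MST1R.

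In HT1376 FOXP3 KO none of the 34 receptors tested passed the edgeR test, against 0.982% of 24131 genes. At an unadjusted p under 0.05 there were 4, against 5.37% of genes, and 2 passed in DESeq2, which called 342 genes. With the replicate block 8 passed, 4 higher and 4 lower, against 5.53% of genes. MST1R was at 53.7, 46.9 and 53.8 untreated and at 73.3, 63.9 and 91.7 with IFNγ (0.58 with the block, adjusted p = 3.43e-11) and DDR2 rose by 0.69 (adjusted p = 3.43e-09), both without overlap. TYRO3, at 15.1, 15.3 and 15.7 against 7.55, 11.8 and 9.13, was lower by 0.72 (adjusted p = 4.14e-05), also without overlap. CSF1R was lower by 0.45 (adjusted p = 6.73e-10), EGFR higher by 0.23 (adjusted p = 6.48e-06) and FLT1 by 0.18 (adjusted p = 0.0325), each with overlapping libraries. PTK7 (-0.26, adjusted p = 0.0328) and EPHA4 (-0.28, adjusted p = 0.0497) were lower. With the bias-adjusted deviance added to the block, FLT1 (adjusted p = 0.111), PTK7 (0.11) and EPHA4 (0.0922) no longer passed in HT1376 FOXP3 KO, nor did FGFR1 (0.0837) in HT1376 CT.

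**Figure D5:**
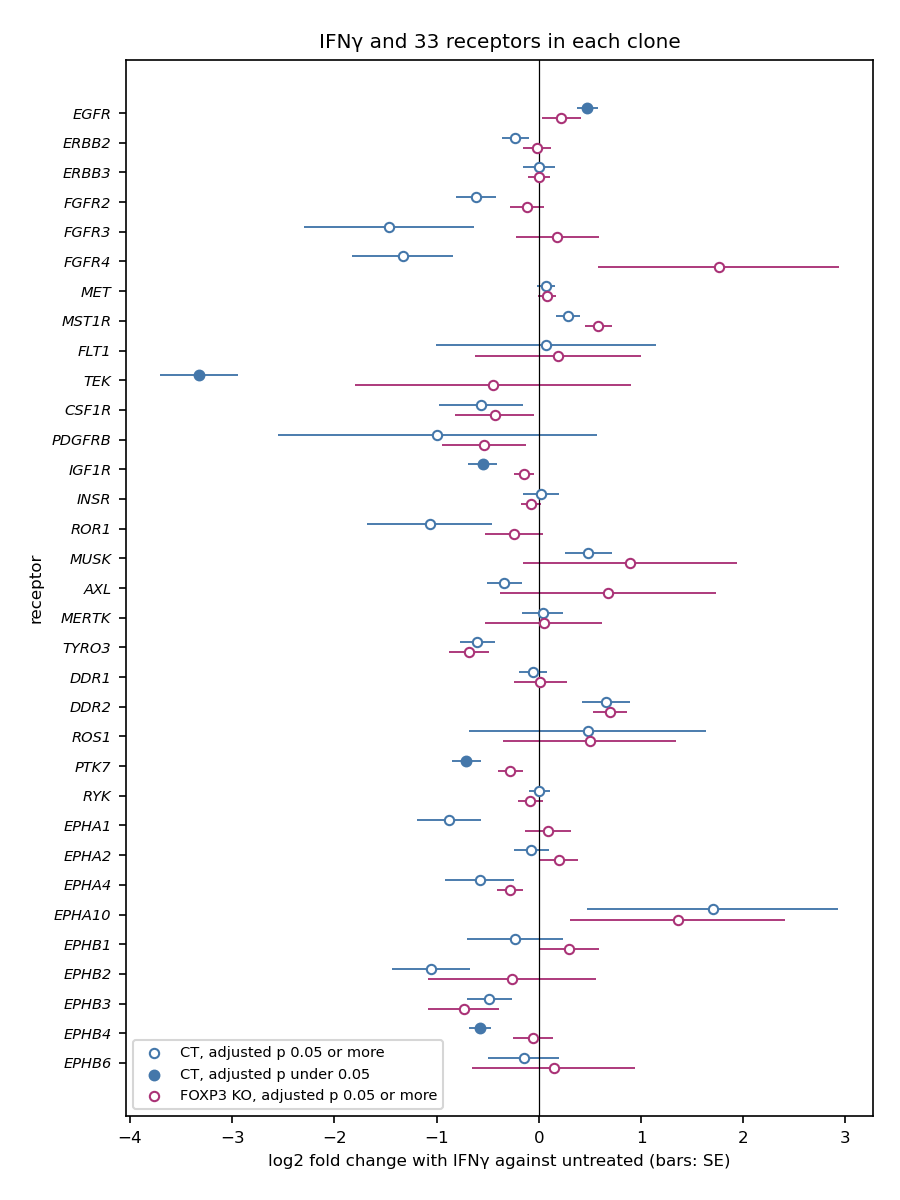
Log2 fold changes with IFNγ against untreated cells are shown for the 33 receptors tested in both clones, HT1376 CT in blue and HT1376 FOXP3 KO in purple, with standard errors as bars and filled points where the adjusted p was under 0.05 without the block. Filled points are TEK, PTK7, EPHB4 and IGF1R on the left of 0 and EGFR on the right, all of HT1376 CT.

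The difference between the clones in the response to IFNγ was tested as an interaction over the 12 libraries. None of the 44 receptors tested passed in edgeR, against 0.111% of 27806 genes. At an unadjusted p under 0.05 there were 4, against 6.21% of genes, and none passed in DESeq2, which called 160 genes. With the replicate block 1 receptor passed, EPHA1 (log2 difference 1.02, adjusted p = 0.0395), against 1.21% of genes, and with the bias-adjusted deviance added its adjusted p was 0.0973. TEK had a log2 difference of 2.85 ± 1.55 (adjusted p = 0.857, and 0.154 with the block). With no filter on low counts TEK (adjusted p = 0.00399), AXL (0.0243) and EPHA1 (0.0382) passed, and over the other settings without a library left out the adjusted p of TEK was 0.154 to 0.876. Without the treated HT1376 FOXP3 KO library numbered 12 the log2 difference of TEK was 0.70 (adjusted p = 0.955), and without the untreated one 4.88 (adjusted p = 0.464).

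Among the listed genes, 7 of 150 tested rose and 6 fell with IFNγ in HT1376 CT, against 5.35% of all genes, and 1 of 143 rose in HT1376 FOXP3 KO, against 0.982%. With the replicate block 29 rose and 30 fell in HT1376 CT, against 18.6% of all genes, and 13 rose and 4 fell in HT1376 FOXP3 KO, against 5.53%. CSF1, the ligand of CSF1R, rose in both, from 4.385 ± 2.09 to 37.4 ± 9.5 normalised CPM in HT1376 CT (log2 fold change 3.08, adjusted p = 0.00015) and from 3.77 ± 1.45 to 18.1 ± 4.7 in HT1376 FOXP3 KO (2.31, adjusted p = 0.00517). In HT1376 CT VEGFC rose by 0.81 (adjusted p = 0.00309), DUSP6 by 0.87 (adjusted p = 0.00895) and PHLDA1 by 0.75 (adjusted p = 0.0283), and SDC1, a heparan sulphate proteoglycan that presents growth factors, fell by 0.84 (adjusted p = 0.000657). None of the ERBB ligands passed in either clone without the block, and with it BTC (1.74, adjusted p = 1.98e-08), HBEGF (1.05, adjusted p = 1.11e-38), TGFA, EREG and AREG were higher and EPGN was lower with IFNγ in HT1376 CT.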

How the data were processed

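RNA from the HT1376 FOXP3 KO and control clones, with or without IFNγ (3 libraries each), was sequenced. The authors aligned the reads with STAR 2.7.11a to GRCh38 (Ensembl 103), removed Mycoplasma reads with Kraken and counted the rest with htseq-count. The deposited values are these raw counts of each gene, in whole numbers and not normalised. All 12 columns were used. Strand and multiple-match settings are not given in the sources used here, so overlapping genes are uncertain: 8 of 25 named receptors share exon bases with another gene, up to 6.23%. Groups followed the sample labels.

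The counts were tested with edgeR 4.0.16 (R 4.3.3) by the quasi-likelihood test with TMM factors, on genes with at least 10 counts in the libraries of a fit, with Benjamini-Hochberg adjustment over all genes tested and a threshold of 0.05; list genes were tested in the same fits. Normalised CPM use TMM factors over the 12 libraries, and levels per kilobase the union of GENCODE 44 exons. Counting intervals are exact (Clopper-Pearson, 95%), and a group at 0 was set to 3 counts per library. Reads carry no stated molecular identifiers, so intervals cover counting error only. Scripts were tested on simulated data.

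The libraries of one number deviated together: the correlations of same-numbered libraries over genes with at least 100 counts were 0.257 to 0.29 within HT1376 CT, 0.325 to 0.442 within HT1376 FOXP3 KO, and 0.101 to 0.258 and 0.101 to 0.205 between the clones untreated and with IFNγ. Over genes with at least 10 counts the values between the clones fell to 0.0471 to 0.136 and 0.0481 to 0.122, so pairing between the clones is narrow. The pairing comes from these data, since the labels give only the number. The members and lists were chosen with earlier results of these data known. Named receptors are the 2 markers and 5 of the largest rises and falls past the threshold between the clones in each treatment. Those past it with IFNγ in either clone, the 5 highest per kilobase and 5 known from bladder cancer were added. TIE1, whose fitted fall between the clones with IFNγ was larger than those of ROR2 and KDR, is not among them. It and further receptors are named to complete a family. Alternatives were RLE factors, other filters, DESeq2 1.42.0, 1 fit of 12 libraries, a bias-adjusted deviance, the replicate block, fold thresholds and leaving out each library.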

Additional observations from a re-analysis of the deposited data

How the results depend on the processing

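Without a named exception below, the counts of receptors and of all genes that passed stayed within 1.5 times the reported count with RLE factors, other filters, DESeq2, 1 fit of 12 libraries, the bias-adjusted deviance, the replicate block and a library left out. Requiring an absolute log2 fold change over 2 left 14 of 26 receptors between the clones untreated and 12 of 24 with IFNγ; for all genes, thresholds of 1 and 2 left 4944 and 3119 of 8135 untreated and 4625 and 2948 of 7046 with IFNγ. With a library left out, 22 to 28 receptors passed untreated and 17 to 24 with IFNγ (all genes 5834 to 7736 and 5031 to 6779).

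For IFNγ in HT1376 CT, the 5 receptors became 9 with no filter, 2 in 1 fit of 12 libraries, 18 with the replicate block, 17 with block and bias-adjusted deviance together, and 1 with either fold threshold; leaving out a library gave 2 to 5. The 1307 genes became 2248 with no filter, 4530 with the block, 4099 with block and bias-adjusted deviance together, 679 and 356 with fold thresholds of 1 and 2, and 761 to 1201 with a library left out. The lowest counts came without HT1376 CT library 13 (2 receptors) and without HT1376 CT with IFNγ library 13 (761 genes); 3 receptors passed without HT1376 CT library 12 or HT1376 CT with IFNγ library 13, and 808 and 839 genes without HT1376 CT library 11 and 13.

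For IFNγ in HT1376 FOXP3 KO, the count of 0 became 2 with no filter, 2 with DESeq2, 8 with the replicate block and 5 with block and bias-adjusted deviance together, and stayed 0 with each library left out. The 237 genes became 1334 and 1027 with these block fits, 125 with a fold threshold of 2, and 161 to 207 with a library left out. For the interaction, the count of 0 became 3 with no filter and 1 with the replicate block, and stayed 0 with each library left out; the 31 genes became 294 with no filter, 160 with DESeq2, 336 and 230 with the block fits, 18 with a fold threshold of 2 and 15 to 33 with a library left out. The cause of these differences was not tested. Over the named receptors 1699 refitted fold changes stayed on their side of the threshold, 58 passed it newly and 40 no longer passed. The sign turned in 99 of the 1699, none of which passed before or after, and 10 of the 1699 had no adjusted p in DESeq2. The block changed no other call between the clones on a named receptor than those given beside the results. Receptors below 1 normalised CPM rest on few counts, and the smallest difference detectable in them at this depth was not measured.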
